A study of Arabidopsis thaliana with 12 samples.

Results

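The genes described here are 64 of the 33602 loci in the count table of an RNA-seq study of wild-type and myb36-1 mutant roots of Arabidopsis thaliana. They were chosen by their counts in these libraries: their messenger RNA stood higher in sorted endodermal cells of the myb36-1 mutant than of wild type and, in the same study, lower in whole roots of the mutant. A locus was kept when its mean was at least 2 CPM (counts per 1000000 counts of its library) in mutant sorted cells and at least 2 times the wild-type mean, with no overlap of libraries. In whole roots its wild-type mean had to be at least 2 CPM and the mutant mean at most 70% of it, again with no overlap of libraries. The conditions for sorted cells were met by 2616 loci and those for whole root by 816. Both sets were met by 66 loci, of which 2 were set aside by the rule itself, leaving 64. The mirrored pattern, lower in mutant sorted cells and higher in mutant whole root, was met by 158 loci. With the same thresholds, 202 loci were higher and 266 lower in the mutant in both sample types.

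The study holds 12 libraries in 4 groups of 3 biological replicates: wild type in the Col-0 accession and myb36-1, each as sorted endodermis and as whole root. All came from seedlings 6 days after exposure to light, grown on agar with sucrose. Whole roots were frozen directly, while the sorted samples were digested to single cells (protoplasts) and taken by fluorescence-activated sorting, and RNA was extracted with a different kit for sorted cells. The labels name neither the fluorescent marker behind the sort nor the position of the myb36-1 lesion, and 1 mutant allele was used.

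The endodermis is the cell layer around the vascular tissue of the root. Its cells first lay down the Casparian strip, a ring of lignin that seals the space between neighbouring cells, and later coat their surface with suberin, a waxy polyester. MYB36 encodes a transcription factor of the R2R3 MYB family that switches on genes of the Casparian strip, and a root without the strip leaks solutes between soil and vessels. Such roots are known to deposit lignin and suberin at sites and times where wild-type endodermis does not.

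Library totals ran from 17721913 to 24274637 counts in wild-type sorted cells, from 7280556 to 13427477 in mutant sorted cells and from 19812171 to 22722091 in whole roots. MYB36 itself (AT5G57620) was still counted in every mutant library, at 17.4 to 21.1 CPM in mutant against 32.9 to 37.0 in wild-type whole roots. In sorted cells it was 81.9 to 193 CPM in the mutant and 127 to 249 in wild type, so the groups overlapped there. The Casparian strip list of 10 genes summed to 2361 to 3355 CPM in wild-type sorted cells and 807 to 1038 in wild-type whole roots, with 8 of 10 called higher in sorted cells (edgeR adjusted p under 0.05). All 10 xylem genes tested were called lower there, and the list of 11 summed to 14.3 to 29.3 CPM in wild-type sorted cells against 716 to 949 in whole roots. In the same comparison, root cap genes were called higher in wild-type sorted cells in 5 of 6 and lower in 1. Root hair and epidermis genes were called higher in 5 and lower in 4 of 16. Wounding and rapid stress genes were called higher in 17 of 18 and lower in 1. Of all 19747 genes tested there, 33.4% were called higher and 35.4% lower. Because these are bulk samples, fewer cells of a type and less RNA per cell cannot be told apart.

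In mutant sorted endodermis the members stood between 2.05 and 30.6 times the wild-type mean, with a median of 3.59. In mutant whole root they held between 14.6% and 69.9% of the wild-type mean, with a median of 60.1%. A fold of 5 or more in sorted cells was reached by 23 members and a fold of 10 or more by 8, while 23 stayed under 3-fold. The whole-root mean was at or below 50% of wild type in 16 members. Of the 64, 62 are protein-coding genes, 1 is a pseudogene and 1 a long non-coding RNA, and 27 carry a gene symbol.

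**Figure D1:**
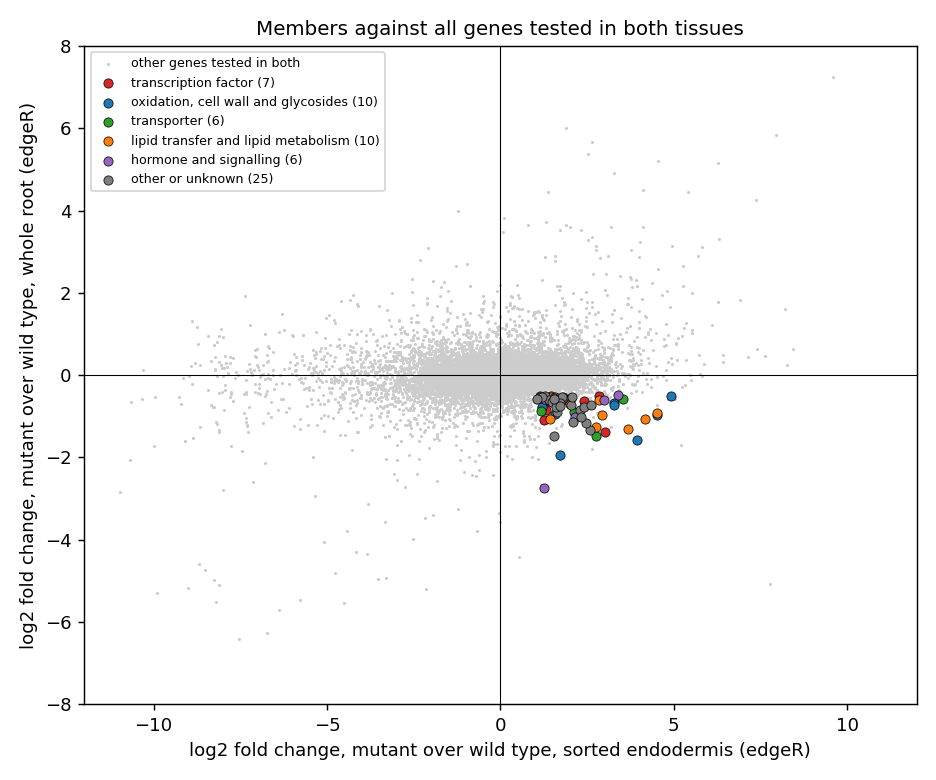
Log2 fold change of myb36-1 over wild type in sorted endodermis (horizontal) and in whole root (vertical), both from edgeR, with 1 point per gene tested in both sample types and members coloured by role. The 64 members lie at the lower right because the rule placed them there. The rule used ratios of mean CPM, which differ somewhat from the plotted edgeR values. Those ratios were folds of 2.05 to 30.6 in sorted cells and 14.6% to 69.9% of wild type in whole root.

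Since the rule used both genotype contrasts, the members' values in them are a description. All 64 members passed the low-count filter in each fit. In sorted endodermis edgeR called 48 members higher (adjusted p under 0.05), where 15.6% of the 18318 genes tested were called higher. In whole roots it called 38 lower, where 2.85% of the 19624 genes tested were called lower. Both calls were made for 29 members, neither for 7. The plot of both fold changes shows the members spread more widely along the sorted-cell axis than along the whole-root axis. The median log2 fold change was 1.85 over the members in sorted cells and -0.05 over all genes tested, and in whole root -0.71 and 0.01. Leaving out wild-type sorted replicate 1, 2 or 3 reduced the 48 to 27, 27 or 31. The 38 became 14 without wild-type whole-root replicate 3, 13, 18 or 13 without mutant whole-root replicate 1, 2 or 3, and 3 in 1 fit of all 12 libraries. Calls over all genes fell in these fits as well. Those higher in sorted cells went from 2857 to 1340, 1234 or 1546 without wild-type sorted replicate 1, 2 or 3. Those lower in whole root went from 559 to 254 without wild-type whole-root replicate 3. They went to 253, 284 or 255 without mutant whole-root replicate 1, 2 or 3, and to 63 in the fit of all 12 libraries.

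Loci lay close on both sides of each threshold. Nearest inside the sorted-cell ratio were AT5G50450, AT1G48960 and AT1G35612, at folds of 2.05, 2.14 and 2.21. Just outside it were RVE8, STN7 and ZW9, at 2.00 (1.99962 before rounding), 1.73 and 1.71. Nearest inside the whole-root ratio were AT1G72900, AT1G35612 and CP5, at ratios of 0.699, 0.698 and 0.695. Just outside were MCCA, RHL41 and AT3G60070, at 0.704, 0.705 and 0.710. Only 12 loci failed by the sorted-cell ratio alone, and 155 by the whole-root ratio alone.

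The members fell into a few orders of level across the 4 groups. In 22 of them the highest group was wild-type whole root, followed by mutant whole root, mutant sorted cells and wild-type sorted cells. In 16 mutant sorted cells were highest, then wild-type whole root, mutant whole root and wild-type sorted cells. Another 14 ran from wild-type whole root through mutant sorted cells and mutant whole root to wild-type sorted cells. In 7 members mutant sorted cells came first and mutant whole root last, with wild-type whole root second. In the remaining 5 mutant sorted cells came first, wild-type sorted cells second and the whole roots last. Wild-type whole root was thus the highest group for 36 members and mutant sorted endodermis for 28, while the lowest was wild-type sorted cells for 52 and mutant whole root for 12. The map of all members by library shows these orders.

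**Figure D2:**
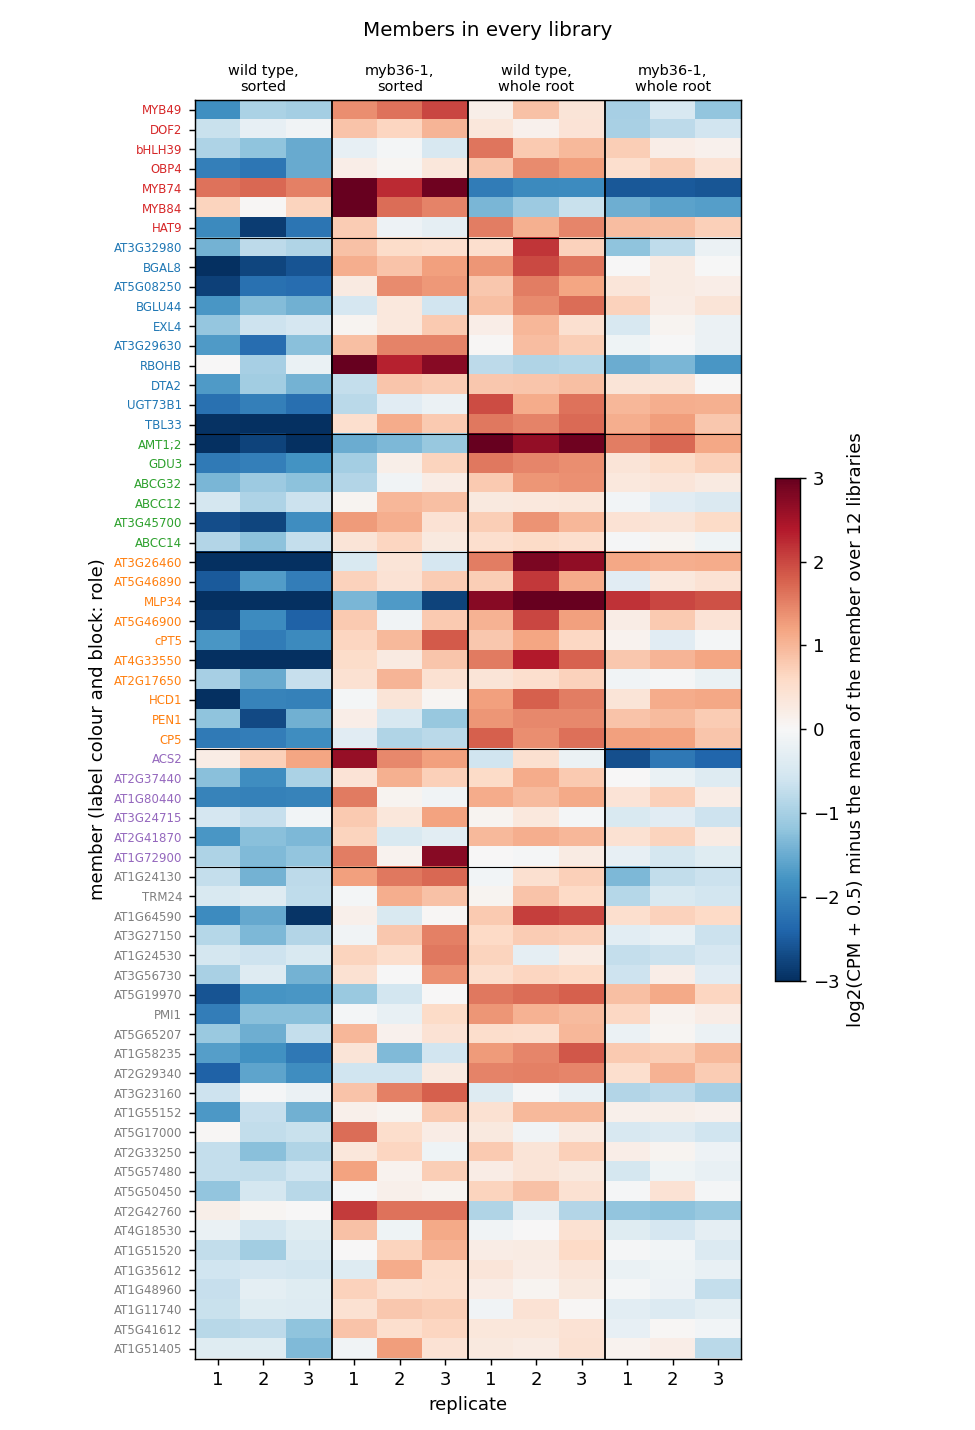
Members (rows, in blocks by role: from the top, transcription factors, oxidation with cell wall and glycoside enzymes, transporters, lipid transfer and metabolism, hormone and signalling, other or unknown) in each of the 12 libraries (columns). Colour is log2(CPM + 0.5) minus the member's mean over the 12 libraries, with values past 3 in either direction drawn in the end colour. Wild-type sorted cells are the lowest group for 52 members and mutant whole root for the other 12, MYB74, MYB84, ACS2, RBOHB and AT2G42760 among them.

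Among the 7 genes given the role of transcription factor, 3 encode R2R3 MYB proteins, the family of MYB36. MYB84, also known as RAX3, is a close relative of MYB36 known for its part in starting axillary buds. MYB49 and MYB74 belong to the same subgroup as MYB41, a known activator of suberin genes. The 250 bases upstream of the starts of MYB49 and MYB74 are printed here because these are regulators among the members. Letters run 5′ to 3′ on the gene's strand (RefSeq, TAIR10.1), and capitals mark a W-box (TTGACN, searched on both strands), the element bound by WRKY factors. The windows lie at chr5:22018062-22018311 (minus strand) and chr4:2618122-2618371 (plus strand).
MYB49: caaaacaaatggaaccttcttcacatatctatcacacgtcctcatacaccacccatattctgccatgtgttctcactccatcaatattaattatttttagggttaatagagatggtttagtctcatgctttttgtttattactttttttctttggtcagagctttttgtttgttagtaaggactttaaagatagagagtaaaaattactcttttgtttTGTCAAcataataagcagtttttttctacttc
MYB74: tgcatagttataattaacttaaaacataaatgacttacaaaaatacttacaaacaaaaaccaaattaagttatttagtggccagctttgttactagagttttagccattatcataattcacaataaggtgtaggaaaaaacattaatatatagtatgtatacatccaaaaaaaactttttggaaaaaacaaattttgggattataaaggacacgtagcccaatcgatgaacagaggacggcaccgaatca
The W-box letters began 32 bases before the start of MYB49, on the strand opposite to the gene, and were not in the window of MYB74. A match of letters is a description and not a binding site.

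Coordinates here are those of TAIR10.1. MYB49 (AT5G54230, chromosome 5, 22016143 to 22018061, minus strand) had 6.31, 12.1 and 11.5 CPM in the 3 wild-type sorted libraries and 63.7, 74.7 and 97.9 in the 3 mutant ones. Whole roots held 27.2, 44.4 and 31.3 CPM in wild type against 11.7, 16.9 and 10.3 in the mutant. Every mutant sorted library was thus above every other library of the study, at 7.89 times the wild-type sorted mean, and mutant whole root held 37.8% of its wild type. MYB84 (AT3G49690, chromosome 3, 18427735 to 18429281, plus strand) read 38.8, 25 and 39 CPM in wild-type and 243, 78.6 and 68.5 in mutant sorted cells. Its whole-root values were 9.11, 11.1 and 15 CPM in wild type against 8.43, 7.67 and 7.33 in the mutant. The first mutant sorted library stood far above the other two, and the log2 fold change of 2.03 became 1.05 without it. MYB74 (AT4G05100, chromosome 4, 2618372 to 2619947, plus strand) had the highest sorted-cell bias of all members. It measured 81, 86.9 and 74.4 CPM in wild-type sorted cells and 291, 124 and 197 in mutant ones. Whole roots had 5.68, 6.54 and 6.64 CPM in wild type against 4.04, 4.09 and 3.92 in the mutant. Both MYB84 and MYB74 were lower in whole roots of either genotype than in sorted cells, unlike MYB49.

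The other 4 regulators were described after their values were seen, except bHLH39. This bHLH factor partners FIT in the iron-deficiency response, and it was the only member on the list of iron genes. It had 1.17, 0.865 and 0.621 CPM in wild-type and 2.16, 2.54 and 1.79 in mutant sorted cells, and 9.11, 5.01 and 5.69 in wild-type and 4.8, 3.13 and 3.00 in mutant whole roots. All sorted values lay under those of whole root, and edgeR called the gene in neither genotype contrast. About 10.7% of its exon bases recur in 31-base stretches elsewhere in the genome, so some reads may belong to other loci. Among the other iron genes, F6'H1, an enzyme of coumarin synthesis, rose in mutant sorted cells (log2 fold change 3.65, SE 0.29, edgeR adjusted p = 0.000306), while FRO2, ABCG37 and FIT fell. For FRO2, a ferric reductase gene, the log2 fold change was -4.22 with an SE of 0.86 (edgeR adjusted p = 0.00916). The homeodomain gene HAT9 rose 6.77-fold between the sorted means and held 69.2% in whole root. The DOF factor genes OBP4, known to restrain cell growth in roots, and DOF2 stood at 5.18 and 2.32 times wild type in sorted cells. Their mutant whole-root means were 63.9% and 45.9% of wild type.

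The members that act on reactive oxygen, the cell wall and glycosides numbered 10. The highest level per exon length of any member, in wild-type whole root and in mutant sorted cells alike, belonged to AT3G32980, annotated as a peroxidase superfamily gene (1476 and 941 CPM per kilobase). Secreted peroxidases of this class oxidise phenolics such as lignin precursors with hydrogen peroxide. AT3G32980 (chromosome 3, 13526071 to 13530098, minus strand) had 341, 528 and 486 CPM in wild-type sorted cells and 1689.9, 1350.0 and 1309 in mutant ones. In whole roots it had 1289.5, 4050.1 and 1485 CPM in wild type against 396, 541 and 807 in the mutant. The second wild-type whole-root library stood far above the other two, and without it the whole-root log2 fold change of -1.95 became -1.22. Between the sorted means the fold was 3.21, and mutant whole root held 25.5% of wild type, the lowest share after ACS2.

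RBOHB (AT1G09090, chromosome 1, 2932739 to 2936586, plus strand), an NADPH oxidase gene whose enzyme releases superoxide outside the cell, read 56, 27.7 and 48.5 CPM in wild-type sorted cells. Mutant sorted cells held 563, 278 and 375 CPM, a 9.21-fold higher mean. Whole roots held 32.2, 29.7 and 30.7 CPM in wild type against 19.7, 21.3 and 16.4 in the mutant, 62% of wild type. Mutant sorted cells stood above every other library, while wild-type sorted cells and wild-type whole root overlapped. BGAL8 (AT2G28470, chromosome 2, 12168840 to 12173991, minus strand), a beta-galactosidase gene whose relatives trim galactose from wall polymers, had 10.4, 12.4 and 14.2 CPM in wild-type sorted cells. Mutant sorted cells held 185, 158 and 206 CPM, so the group means were 12.3 ± 1.87 and 183 ± 23.8 (SD, n = 3), a fold of 14.8. In whole roots it fell from 221, 347 and 269 CPM in wild type to 87.6, 104 and 86.6 in the mutant. Wild-type sorted cells were therefore lowest and wild-type whole root highest, and the mutant groups lay between them without overlapping either. RBOHB and BGAL8 each overlap an exon of a gene on the other strand, so their counts carry that uncertainty if counting ignored strand.

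The remaining 7 genes of this group were named after their values were seen. TBL33, of a family that acetylates wall polysaccharides such as xylan, had the highest fold of all members in sorted cells. It went from 1.12, 0.742 and 0.282 CPM in wild type to 17.3, 26.9 and 21.3 in the mutant, 30.6-fold. Whole-root libraries held 37.5, 34.9 and 40.4 CPM in wild type against 26.3, 29.8 and 21.5 in the mutant, which is 68.8%. The cytochrome P450 gene AT5G08250 showed a like pattern at lower level, from 0.204, 0.536 and 0.508 to 5.36, 12.6 and 11.5 CPM in sorted cells and from 8.1, 13.6 and 10.7 to 5.75, 5.35 and 5.16 CPM in whole roots. Glycosyltransferase genes AT3G29630 and UGT73B1 had sorted-cell folds of 9.61 and 3.48 and kept 59.2% and 68.1% in whole root. The beta-glucosidase gene BGLU44, the EXORDIUM-like gene EXL4 and DTA2 had folds of 2.99, 2.26 and 3.7.

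**Figure D3:**
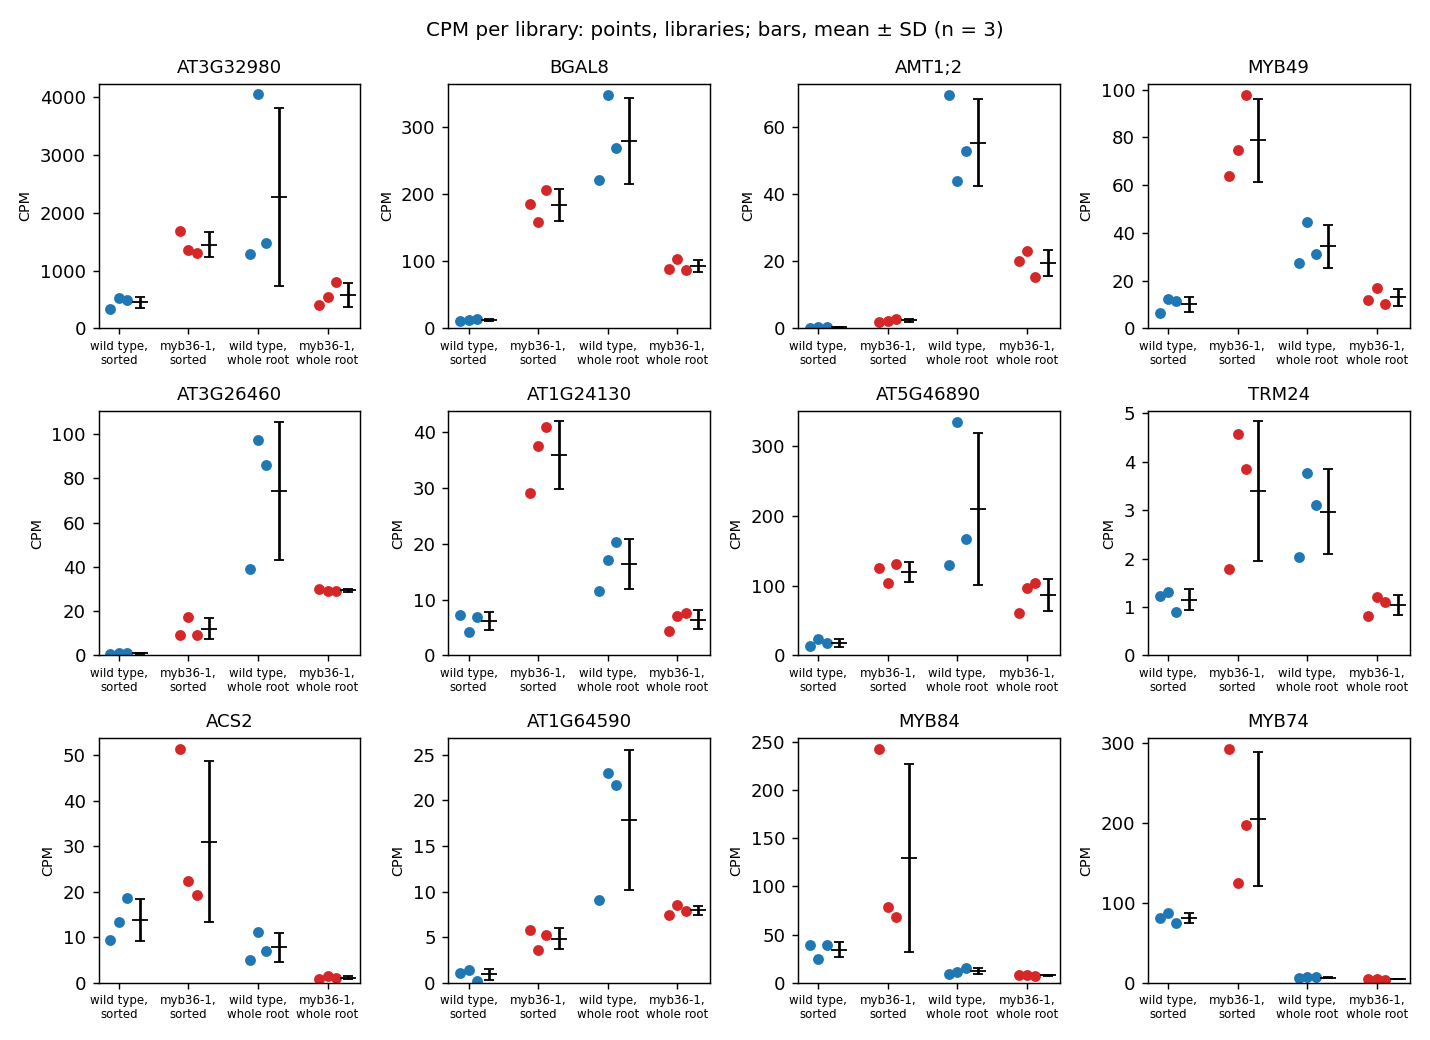
CPM on linear axes from 0 in each of the 12 libraries for the 10 members with the largest value of the smaller of their 2 log2 changes, plus MYB84 and MYB74. Points are libraries (blue wild type, red myb36-1) and bars are mean ± SD over 3 libraries. BGAL8, AT3G26460, AMT1;2 and AT1G64590 peak in wild-type whole root, and MYB49, AT1G24130, ACS2, MYB84 and MYB74 in mutant sorted endodermis.

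Of the 6 transporter genes, 3 encode ABC transporters. AMT1;2 (AT1G64780, chromosome 1, 24060640 to 24062804, minus strand) encodes an ammonium transporter known from the endodermis and cortex of the root. It had 0.153, 0.536 and 0.339 CPM in wild-type sorted cells and 2.01, 2.29 and 2.75 in mutant sorted cells. Whole roots held 69.5, 43.8 and 52.8 CPM in wild type against 19.9, 23.1 and 15.4 in the mutant. The rise in sorted cells was 6.86-fold from a very low level, and even the mutant sorted libraries lay far under every whole-root library. Among all members the gap between wild-type whole root and wild-type sorted cells was widest here, at 162-fold. On the list of 8 nitrogen genes AMT1;2 was the only member. Of 7 tested in sorted cells, AMT1;2 and the nitrite reductase gene NIR1 were called higher, and NRT1.1 and GLN1;1 lower. In whole root, NIA2 and NIR1 were called higher and AMT1;2 lower, of 8 tested. Of all genes tested, 15.6% were called higher and 12.9% lower in sorted cells, and 3.25% and 2.85% in whole root.

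ABCC14 (AT3G62700, chromosome 3, 23190265 to 23195917, minus strand) had 81.3, 63.9 and 91.5 CPM in wild-type and 197, 236 and 186 in mutant sorted cells. Its whole-root values were 212, 226 and 214 CPM in wild type against 147, 159.8 and 138 in the mutant. Mutant sorted cells, at 2.62 times their wild type, overlapped the wild-type whole-root range. ABCC12, another transporter of the same subfamily, had 25.6, 19.4 and 23.7 CPM in wild-type and 39.5, 74.2 and 69.5 in mutant sorted cells. Its whole roots had 45.5, 46.6 and 46.9 CPM in wild type against 35.1, 29.4 and 27.2 in the mutant, the wild-type libraries being nearly equal. Shared 31-base stretches cover 21.2% of its exon bases, which makes its counts uncertain. ABCG32, which exports cutin precursors to the cuticle, had the smallest sorted-cell fold of the 3, 2.26, from 2.34, 2.97 and 2.65 to 3.5, 6.35 and 8.1 CPM in sorted cells. Its whole-root values were 12.2, 17.8 and 18.4 CPM in wild type against 8.73, 9.03 and 8.39 in the mutant. Named after their values were seen, GDU3, whose family promotes amino acid export, had a fold of 4.38, and the major facilitator gene AT3G45700 one of 11.1.

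Lipid transfer and lipid metabolism took in 10 members. Lipid-transfer proteins are small secreted proteins that carry acyl chains across the cell wall. AT5G46890 and AT5G46900, both annotated in that superfamily, are the only members that are direct neighbours in the genome, on chromosome 5 with 2762 bases between them. Their exons align with 73.1% identity and their 250 upstream bases with 59.0%, and 45.0% and 34.0% of their exon bases recur in 31-base stretches elsewhere, so reads may be split between copies. The windows chr5:19036939-19037188 and chr5:19040457-19040706 (both minus strand, RefSeq, TAIR10.1) are printed because the pair are neighbours with like values, with W-box letters in capitals.
AT5G46890: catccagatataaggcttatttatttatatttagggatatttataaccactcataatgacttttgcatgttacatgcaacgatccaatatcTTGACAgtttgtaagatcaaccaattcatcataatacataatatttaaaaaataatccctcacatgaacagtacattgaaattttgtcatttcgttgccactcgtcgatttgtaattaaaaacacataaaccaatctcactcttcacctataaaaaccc
AT5G46900: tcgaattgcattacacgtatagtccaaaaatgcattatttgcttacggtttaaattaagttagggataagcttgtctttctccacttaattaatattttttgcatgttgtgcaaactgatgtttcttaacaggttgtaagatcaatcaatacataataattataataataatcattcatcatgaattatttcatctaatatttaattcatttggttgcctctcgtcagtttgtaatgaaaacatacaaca
The W-box letters began 159 bases before the start of AT5G46890 and were not in the window of AT5G46900.

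AT5G46900 (chromosome 5, 19039701 to 19040456, minus strand) had 29.4, 57 and 38.9 CPM in wild-type sorted cells and 362, 195 and 361 in mutant ones. In whole roots the values were 434, 843 and 491 CPM in wild type against 245, 362 and 282 in the mutant. Its neighbour AT5G46890 (chromosome 5, 19036296 to 19036938, minus strand) read 13, 23.7 and 17.8 CPM in wild-type and 125, 104 and 131 in mutant sorted cells. In both genes the second wild-type whole-root library was the highest of its group. For AT5G46890 whole roots read 129, 335 and 167 CPM in wild type against 60.8, 96.1 and 104 in the mutant. Mutant sorted cells overlapped mutant whole root for AT5G46900 and both whole-root groups for AT5G46890. The folds in sorted cells were 7.32 and 6.61, and the whole-root shares 50.3% and 41.4%. Another lipid-transfer type gene, AT4G33550 (chromosome 4, 16134366 to 16135134, plus strand), went from 1.42, 0.659 and 1.52 CPM in wild-type to 26.1, 21.2 and 32 in mutant sorted cells, 22-fold. Its whole roots held 53.1, 93.6 and 61.1 CPM in wild type against 31, 36.3 and 40.5 in the mutant. Here wild-type whole root stayed above every mutant sorted library.

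AT3G26460 (chromosome 3, 9683682 to 9684657, minus strand) is annotated in the polyketide cyclase and lipid transport superfamily. It had 0.662, 0.989 and 1.18 CPM in wild-type and 9.46, 17.5 and 9.2 in mutant sorted cells. In whole roots it had 39, 97.5 and 86.2 CPM in wild type against 30.03, 28.9 and 29.1 in the mutant. The mutant whole-root libraries lay within a narrow range, while the first wild-type library stood well under the other two. MLP34 (AT1G70850, chromosome 1, 26714866 to 26716901, minus strand), of the major latex protein family, came next to AT3G32980 by level per exon length in wild-type whole root, at 1170.4 CPM per kilobase. Sorted cells had 20.5, 18.9 and 20.5 CPM in wild type against 71.4, 57 and 26.5 in the mutant. Whole roots had 1221, 1614 and 1999.5 CPM in wild type against 837, 743 and 699.6 in the mutant. Every sorted library stood far under every whole-root library, so the 2.59-fold difference between sorted groups lay at the foot of the range. About 21.3% of the exon bases of MLP34 recur elsewhere. Named after their values were seen, the cis-prenyltransferase gene cPT5 had a fold of 17.9 and HCD1 one of 7.15. PEN1, which makes the triterpene arabidiol, had a fold of 2.56, with 67.8% left in mutant whole root. CP5, a lipid transport superfamily gene near the whole-root threshold, had 6.62, 6.84 and 8.01 CPM in wild-type and 24, 15.9 and 17.2 in mutant sorted cells. Its whole roots had 107, 80.2 and 95.9 CPM in wild type against 72.2, 70.3 and 54.1 in the mutant.

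Hormone and signalling genes numbered 6. ACS2 (AT1G01480, chromosome 1, 175706 to 178406, plus strand) encodes an enzyme of the committed step of ethylene synthesis. It had 9.36, 13.3 and 18.7 CPM in wild-type sorted cells and 51.2, 22.4 and 19.2 in the mutant. Whole-root libraries had 5.02, 11.2 and 6.98 CPM in wild type against 0.858, 1.41 and 1.11 in the mutant, the lowest whole-root share of all members at 14.6%. The first mutant sorted library carried most of the 2.24-fold difference. Without it the log2 fold change in sorted cells went from 1.26 to 0.54, and edgeR did not call the gene there. AT1G72900, a gene with a Toll-interleukin receptor domain as found in immune receptors, varied most in mutant sorted cells. Its values were 1.73, 1.19 and 1.35 CPM in wild-type and 11.7, 4.06 and 27.5 in mutant sorted cells, and the log2 fold change of 3.38 became 2.58 without the third mutant library. Whole-root values were close, at 3.74, 3.62 and 4.54 CPM in wild type against 3.08, 2.42 and 2.81 in the mutant. Named after their values were seen, the kelch-repeat gene AT1G80440 had a fold of 7.46, AT2G37440 one of 4.38 and the remorin gene AT2G41870 one of 3.29.

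The last 25 members have other or unknown functions, with sorted-cell folds of 2.05 to 6.26 and whole-root shares of 35.2% to 69.8%. In 16 of them mutant sorted cells were the highest group. AT5G19970 was counted here, though its product is annotated as a GRAS family transcription factor and its note as an unknown protein. AT1G24130 (chromosome 1, 8534146 to 8535660, minus strand), with WD40 repeats, had 7.23, 4.24 and 6.83 CPM in wild-type and 29.1, 37.5 and 40.9 in mutant sorted cells. Whole roots had 11.5, 17.2 and 20.4 CPM in wild type against 4.44, 7.06 and 7.61 in the mutant. The wild-type sorted and mutant whole-root libraries occupied the same range, and wild-type whole root lay between them and mutant sorted cells. TRM24 (AT5G51850, chromosome 5, 21079106 to 21081632, plus strand), of a family that recruits proteins to microtubules, read 1.22, 1.32 and 0.903 CPM in wild-type and 1.79, 4.57 and 3.85 in mutant sorted cells. It read 2.02, 3.76 and 3.11 CPM in wild type against 0.808, 1.21 and 1.11 in the mutant in whole roots, so all its levels were low. AT1G64590 (chromosome 1, 23993477 to 23995509, plus strand), annotated with a Rossmann fold, had 1.02, 1.44 and 0.226 CPM in wild-type and 5.73, 3.56 and 5.22 in mutant sorted cells. Whole-root libraries read 9.07, 23 and 21.7 CPM in wild type against 7.42, 8.48 and 7.88 in the mutant. Its first wild-type whole-root library lay close to the mutant values and well under the other two.

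The members nearest the sorted-cell threshold differ little between groups. AT5G50450, with a zinc finger of the MYND type, had 1.88, 3.25 and 2.54 CPM in wild-type and 4.92, 5.59 and 5.22 in mutant sorted cells, and 8.14, 9.47 and 7.02 in wild-type and 4.85, 6.81 and 4.75 in mutant whole roots. AT1G48960, annotated with an adenine nucleotide hydrolase fold, had 2.49, 3.46 and 3.27 and 7.3, 6.1 and 6.32 CPM in the sorted groups in that order, and 5.11, 4.64 and 5.45 and 4.14, 3.84 and 2.44 in whole roots. AT1G35612, the pseudogene among the members, had 7.89, 8.32 and 8.13 and 9.16, 26.8 and 17.7 CPM in sorted cells, where the first mutant library lay close to wild type, and 15.8, 14.1 and 15.6 and 10.4, 11 and 10.4 in whole roots.

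Sorted cells and whole roots can also be set against each other within a genotype, although in that comparison the cell type cannot be told apart from the digestion, the sort and the extraction kit. The rule favours low wild-type sorted and high wild-type whole-root values, and the reverse in the mutant, so no direction was read from these counts. In wild type the sorted mean was below the whole-root mean for 59 members, with no overlap of libraries in 57. The shares of all genes that met these 2 conditions were not counted. EdgeR called 52 lower and 5 higher, where 35.4% and 33.4% of the 19747 genes tested were called so. The 5 called higher were MYB74, MYB84, ACS2, AT2G42760 and RBOHB. MYB74 led them at 12.8 times whole root. In the mutant the sorted mean was above the whole-root mean for 42 members and below it for 22. EdgeR called 26 higher and 6 lower, where 12.3% and 17.3% of 19347 genes were called so. The 6 were AMT1;2, MLP34, AT3G26460, CP5, UGT73B1 and AT5G19970. The median log2 difference went from -2.03 in wild type (all genes -0.01) to 0.91 in the mutant (all genes -0.08). Without mutant whole-root replicate 1, 2 or 3 the 32 mutant calls became 20, 18 or 19. Over all genes the calls went from 2384 higher and 3343 lower to 1114 and 1928, 1085 and 1820, or 1132 and 1808.

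**Figure D4:**
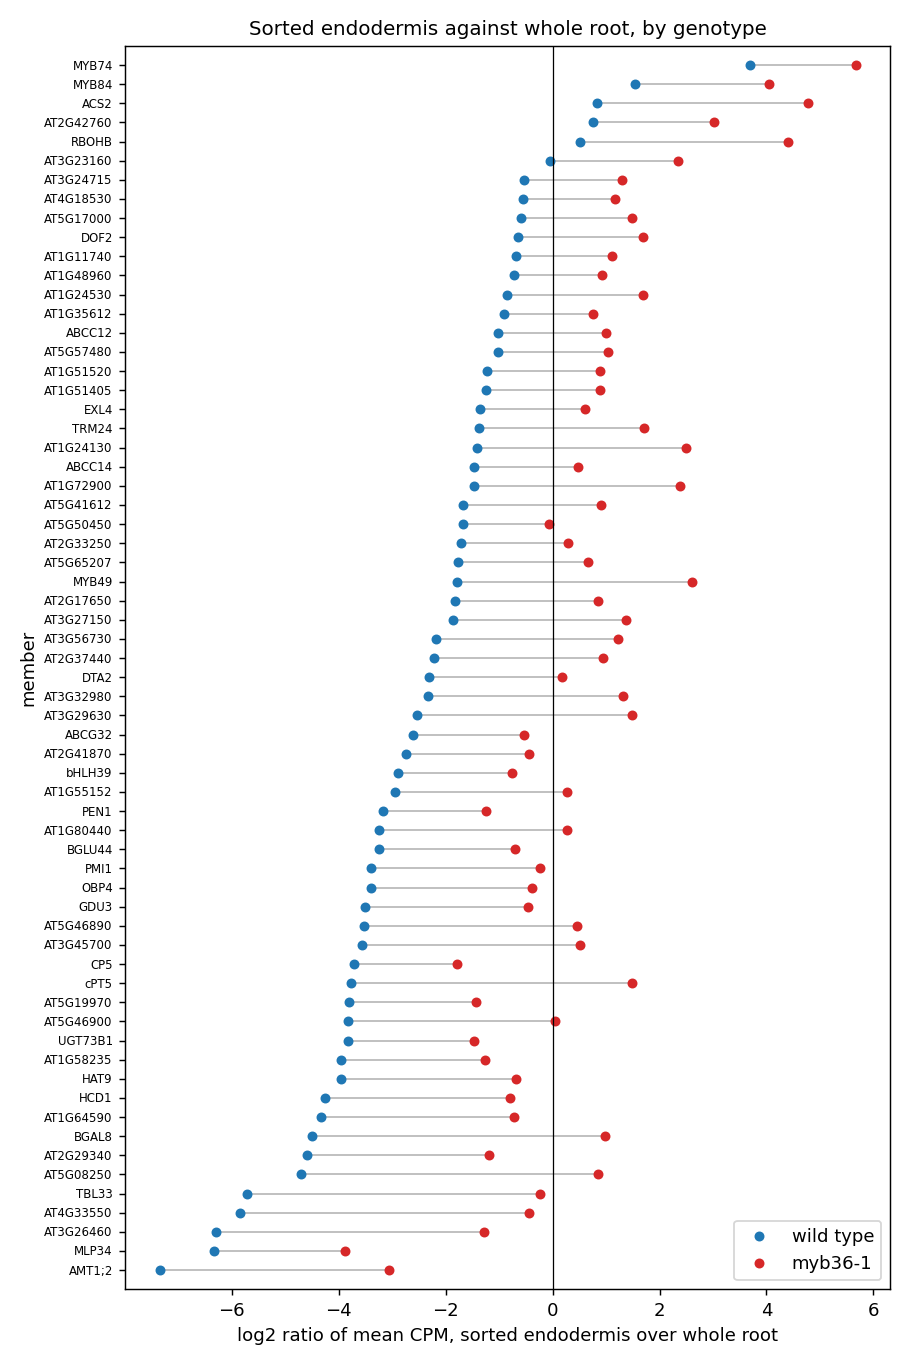
Log2 ratio of mean CPM in sorted endodermis over whole root for each member, in wild type (blue) and myb36-1 (red), ordered by the wild-type ratio. The line at 0 marks equal levels: 5 members lie right of it in wild type and 42 in the mutant, from AMT1;2 at the bottom to MYB74 at the top.

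The difference between the 2 genotype effects (sorted minus whole root) was called for 63 of 64 members with edgeR, all in the direction of the rule, where 13.8% of 20302 genes were called higher. AT1G51405 was the exception. The rule builds this difference in, so the count is given as a description. The mean level was low in many members: 35 were under 5 CPM in wild-type sorted cells, 12 in mutant sorted cells, 6 in wild-type and 16 in mutant whole roots. No member had a library with 0 counts. Median coefficients of variation over the members were 25.1% in wild-type sorted cells, 33.0% in mutant sorted cells, 19.3% in wild-type and 13.1% in mutant whole roots.

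Within the groups single libraries leaned the same way for many members. Wild-type whole-root replicate 1 was the lowest of its group for 40 members, and mutant whole-root replicate 3 the lowest of its group for 36. Mutant whole-root replicate 2 was the highest for 35. These counts were made for the members only, with no share over all genes, and the rule used the same libraries. Summed over the members, wild-type whole roots held 5238, 9253 and 6513 CPM and mutant whole roots 2819, 3147 and 3141. The sorted libraries held 1071, 1245 and 1306 CPM in wild type against 5216, 3969 and 4459 in the mutant. AT3G32980, MLP34 and AT5G46900 make up a large part of the whole-root sums. In the sorted sums of both genotypes AT3G32980 was the largest single member, and MLP34 was only a small part.

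The members are spread over all 5 chromosomes, with 19 on chromosome 1, 11 on 2, 13 on 3, 6 on 4 and 15 on 5. Motifs were searched on both strands in a window from 250 bases before to 50 bases after the start of the 62 protein-coding members and of 27443 protein-coding genes in all. W-box letters (TTGACN) were found in 27 members, 43.5% against 50.4% of all genes. The AC element bound by many MYB factors (ACCNACC) was in 4 members, 6.45% against 7.39%. The G-box (CACGTG) was in 2, 3.23% against 7.68%, and the GCC box (GCCGCC) in 1, 1.61% against 2.57%. Letters of the heat shock element (GAANNTTC) were in 10 members, 16.1% against 11.6%, and the phosphate-starvation element P1BS (GNATATNC) in 4, 6.45% against 6.25%. These shares are descriptions, and matches of different motifs may overlap.

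Some counts cannot be assigned cleanly. In 14 members over 5% of exon bases recur in 31-base stretches elsewhere in the genome, inside or outside exons, and 36 members share none. The share was 52.9% in AT1G58235, 33.6% in AT5G17000, 20.8% in cPT5, 13.9% in AT3G26460 and 8.26% in AT1G72900 and PEN1. An exon on the other strand overlaps 9 members, CP5, UGT73B1 and cPT5 among them, and an exon on the same strand 4, PMI1, AT1G51405, AT2G17650 and AT5G65207.

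Markers of other cells differed between the sorted groups. Over all genes tested, 15.6% were called higher and 12.9% lower in mutant sorted cells, and 3.25% and 2.85% in mutant whole roots. The 6 root cap genes summed to 168 to 224 CPM in wild-type and 3.17 to 17.2 in mutant sorted cells, with 5 called lower in the mutant by edgeR and FEZ not called. In whole roots the same list held 66.9 to 120 CPM in wild type and 132 to 165 in the mutant, with 2 called higher. Root hair and epidermis genes summed to 426 to 501 CPM in wild-type and 134 to 158 in mutant sorted cells (9 of 16 called lower), and to 386 to 734 and 667 to 771 in wild-type and mutant whole roots. Wounding and rapid stress genes summed to 1987 to 2780 CPM in wild-type and 3574 to 9465 in mutant sorted cells, with 10 of 18 called higher. In whole roots they summed to 272 to 293 and 407 to 444 CPM, with 7 of 16 tested called higher. The 3 cortex genes, 1 of them of the ground tissue list too, summed to 65.9 to 72.0 CPM in wild-type and 122 to 226 in mutant sorted cells. Both tested there were called higher. None of these markers is a member, and their part in the members' pattern was not tested.

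Lists of the endodermis itself also differed, where 15.6% of all genes tested were called higher and 12.9% lower in mutant sorted cells. In mutant whole root the shares of all genes were 3.25% and 2.85%. Suberin genes were called higher in mutant sorted cells in 12 of 14 tested. Their sums were 359 to 493 CPM in wild type and 951 to 1316 in the mutant. In whole root 2 of 16 suberin genes were called higher and 1 lower. Casparian strip genes were called lower in 7 of 10 and higher in 2 in mutant sorted cells, and lower in 8 of 10 in mutant whole roots. Of the tissue inside the endodermis, the 6 stele and pericycle genes summed to 184 to 235 CPM in wild-type and 156 to 201 in mutant sorted cells. The 7 phloem genes summed to 5.52 to 11.9 CPM in wild-type and 10.03 to 27.6 in mutant sorted cells, and the 11 xylem genes to 11.05 to 24.2 in mutant sorted cells. EdgeR called no gene of these lists between the sorted groups, with 4 stele and pericycle, 4 phloem and 7 xylem genes tested. Of all 19 lists, 2 held a member.

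The authors' deposited tables of Cuffdiff tests, made from pooled replicates, gave 51 members an entry of their own with a completed test for sorted cells. For whole root the number was also 51, but not of all the same members. RBOHB had a completed test only for sorted cells and AT5G57480 only for whole root. For each sample type, 4 members were merged with other genes, 5 had no single entry and 4 had no completed test. In the authors' deposited table all 51 were higher in mutant sorted cells, with log2 ratios of FPKM from 1.105 to 4.89, and 36 had a q-value under 0.05. For whole root the authors' deposited table put all 51 lower, from -2.67 to -0.09, with 23 at a q-value under 0.05. The same libraries underlie these tables, so they are another processing and not another experiment.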

How the data were processed

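RNA was measured in 12 strand-specific libraries, 3 biological replicates in each of 4 groups, assigned from the sample descriptions. The authors deposited raw read counts per locus for all libraries, and normalized counts per sample type, used here as a signal in 1 alternative. The deposited Cuffdiff tables hold 1 FPKM per genotype from pooled replicates, the log2 ratio, and per the file headers also a p-value with its q-value. TopHat2, SAMtools, Cufflinks, Cuffdiff, HTSeq and TAIR10 are named in the submitters' processing notes. Their versions, and whether strand was used in counting, were not given in the sources used here.

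CPM used column sums. The test was edgeR's quasi-likelihood F-test (version 4.0.16, under R 4.3.3, with TMM and filterByExpr, Benjamini-Hochberg over all genes tested, called at an adjusted p under 0.05), in fits of the 6 libraries of each comparison and of all 12 for the difference of effects. Alternatives were DESeq2 1.42.0, limma-voom 3.58.1, other scalings and filters, a replicate block, each library left out, and other thresholds of the rule. The calls were also run on simulated counts with the same dispersion for every gene in both sample types. That run does not check the calls at the spread of the mutant sorted libraries. A standard error is the fold change divided by the root of F. The p-values set the difference between groups against the spread between these libraries. The number of counts limits low members, 35 of which were under 5 CPM in wild-type sorted cells. No pair of replicates agreed within sampling noise. Names, coordinates and sequences come from RefSeq's TAIR10.1 annotation, which held 32835 of the 33602 loci and all 64 members. Shared exon stretches were counted as exact 31-base matches of member exons to the whole genome sequence, on both strands.

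The members and the 19 gene lists were chosen with earlier results of these data known. Named with values in every library were the 10 members with the largest value of the smaller of their 2 absolute log2 changes (on CPM + 0.5), the 5 highest by mean CPM in each of mutant sorted cells and wild-type whole root, those on a list, those of a family with 3 or more members, and those nearest the thresholds. Roles and families were assigned by hand after the members were known.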

Additional observations from a re-analysis of the deposited data

Results flagged for a closer look

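The effect of the genotype differed between sorted endodermis and whole root for 63 of the 64 members by the interaction term over all 12 libraries (edgeR adjusted p under 0.05, 13.8% of 20302 genes called in that direction). The rule chose the members for this opposite behaviour, so the count describes the choice. The median log2 difference between the effects was 2.62 over the members and -0.10 over all genes tested. Groups of 3 were too small to test single libraries for outlying values.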

How the results depend on the processing

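The rule found 64 loci as given, 12 with stricter ratios (3 in sorted cells, 0.5 in whole root), 158 with looser ones (1.5 and 0.8), 51 with a minimum of 5 CPM, and 63 to 65 under 3 other scalings. It found 58 to 92 when 1 library was left out. With every library thinned to the shallowest total it found 63, but only 47 of them were among the 64. Calls higher in sorted cells were 48, with 42 to 64 under other tools, scalings, filters and 1 fit of all 12 libraries, and 27 to 49 when 1 library was left out. Calls lower in whole root were 38, with 38 to 50 under other tools, scalings and filters, 3 in 1 fit of all 12 libraries, and 13 to 47 when 1 library was left out. Over all genes, calls higher in sorted cells were 2857, with 2632 to 3447 under other tools, scalings and filters. They were 4493 of 20302 in 1 fit of all 12 libraries, and 1234 to 3451 when 1 library was left out. For whole root, calls lower over all genes were 559, with 537 to 809 under other tools, scalings and filters. They were 63 in 1 fit of all 12 libraries, and 253 to 1059 when 1 library was left out. The cause of these shifts was not tested. Calls between sorted cells and whole root were 57 in wild type (54 to 56 with 1 library left out) and 32 in the mutant (18 to 40). For the difference of effects the range was 62 to 64. With 1 library left out, calls over all genes between sorted cells and whole root in wild type were 5685 to 6489 higher and 6273 to 6927 lower. In the mutant they were 1085 to 3669 higher and 1808 to 4888 lower. For the difference of effects they were 2087 to 3507 higher and 2180 to 4373 lower. Among the 25 named members 332 of 348 sorted-cell values and 344 of 347 whole-root values moved by less than the spread, and none of these changed sign. The rule kept only loci with no overlap of libraries in both genotype contrasts. A change of sign was therefore hardly possible, and no conclusion is drawn from its absence.

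Replicate numbers are shared between groups. Deviations of same-numbered libraries correlated at 0.0176, 0.176 and -0.000324 in sorted cells and 0.238, 0.115 and -0.0477 in whole root, so the numbers were not taken to pair the libraries. With the replicate block, 40 members were called higher in sorted cells, 44 lower in whole root, 56 and 23 between sorted cells and whole root in wild type and mutant, and 61 for the difference of effects. Over all genes the block gave 2439 calls higher in sorted cells and 718 lower in whole root, against 2857 and 559 without it. Between sorted cells and whole root the block gave 6556 higher and 7008 lower in wild type, against 6587 and 6983. In the mutant it gave 1559 higher and 2369 lower, against 2384 and 3343. For the difference of effects it gave 2297 higher and 2603 lower, against 2803 and 2955.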
